A study of Homo sapiens with 6 samples.

Results

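Genes of TGF-beta superfamily ligands and receptors, 10 in number, were followed in bone-homing MDA-MB-231 cells, which come from a line of human triple-negative mammary carcinoma, kept at rest or under fluid flow in a 3D model. They were the rows of the deposited count table whose symbol was TGFB1, TGFB2, TGFB3, INHBA, BMP4, TGFBR1, TGFBR2, ACVR1, TGFBR3 or ENG, 10 of the 60591 genes listed. The groups were static cells without flow (0 mL/min), low flow (1 mL/min) and high flow (15 mL/min), with 2 libraries each. All 3 groups carried the same line and the same bone-homing genotype entry, and the labels named no other agent, the duration of flow or the number of cultures behind the libraries.

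TGF-beta family ligands are secreted dimers that bring together type I and type II serine/threonine kinase receptors on the cell surface. The activated type I receptor phosphorylates SMAD2 and SMAD3 after TGF-beta or activin, and mostly SMAD1, SMAD5 and SMAD9 after a bone morphogenetic protein (BMP). TGF-beta itself is secreted in a latent complex and is stored in bone matrix, and breast cancer cells in bone are known to answer it with osteolytic factors such as PTHLH. The deposited values are RNA counts, so neither secreted nor active ligand was measured.

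Library totals ran from 17822642 to 53279537 counts, with both static libraries below the other 4. Levels are given as CPM (counts scaled here to a common library size with TMM factors), and tests are from edgeR's quasi-likelihood fit over all 20676 genes that passed the expression filter, with p-values adjusted by the Benjamini-Hochberg method over all of them and a threshold of 0.05. All 10 genes passed the filter, the lowest count being 44, for TGFB3 in a static library. Both high flow columns name another lane than the static and low flow columns, so in any comparison with high flow the lane cannot be told apart from the flow rate. The labels call the 2 libraries of a group replicates but not separate cultures, so the p-values measure the spread between libraries, which may be technical. The cell type entry of the labels reads endothelial, and the markers were mixed. Of 8 endothelial genes CDH5, CLDN5, VWF, TEK and EMCN averaged under 1 CPM and KDR had 0.413 to 1.69 CPM, while PECAM1 had 8.32 to 14.1 CPM and TIE1 29.8 to 44.2 CPM. Of 6 epithelial genes KRT18 had 163 to 237 CPM and EPCAM 2.69 to 4.26 CPM, and CDH1 had at most 0.0563 CPM. The mesenchymal gene VIM had 3620 to 5030 CPM.

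Under high flow 5 of the 10 genes were higher than in static cells, namely the ligand genes TGFB1, INHBA and BMP4, the receptor gene ACVR1 and the coreceptor gene ENG, by 1.36-fold to 1.89-fold, and 0 were lower. Of all genes tested 13.9% passed in that comparison, 7.49% higher and 6.43% lower. Under low flow BMP4 and ACVR1 were higher than in static cells and 0 of the 10 were lower, where 6.74% of all genes passed, 3.25% higher and 3.49% lower. Between high flow and low flow 0 of the 10 passed in edgeR's test, where 0.334% of all genes did, while 3 of the 10 had an unadjusted p under 0.05 and 1, INHBA, passed in DESeq2. The median log2 fold change of the 10 genes was 0.26 for low flow against static, 0.31 for high flow against static and 0.09 between the flow rates (high over low), beside medians over all genes of 0.0074, 0.0025 and 0.0058. The comparisons with static share the 2 static libraries, so their results are not independent of each other.

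**Figure D1:**
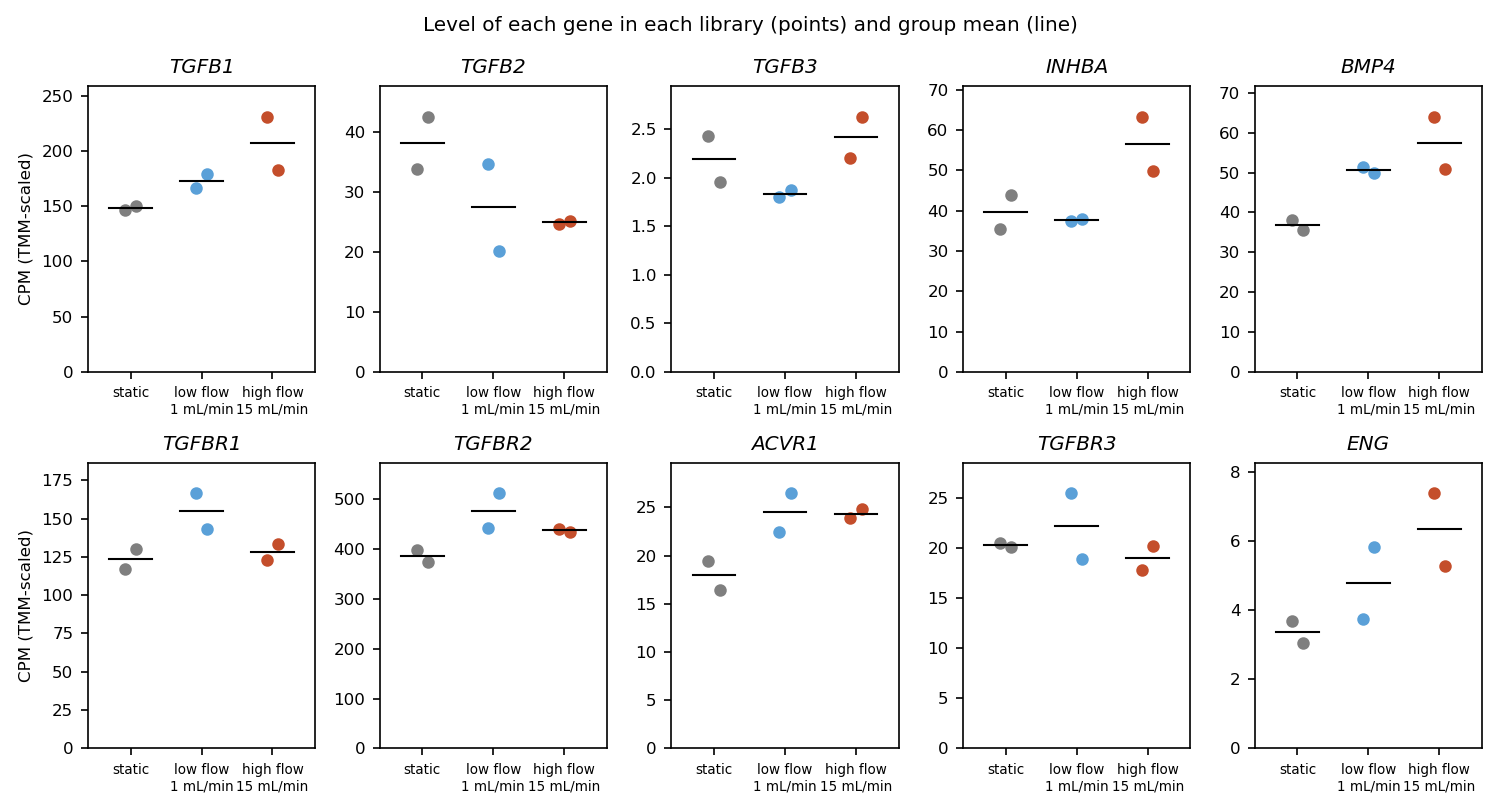
Level of each of the 10 genes in CPM (y axis, from 0) in the 2 libraries of static, low flow and high flow (points), with the group mean as a line. The high flow points lie above both static points for TGFB1, INHBA, BMP4, TGFBR2, ACVR1 and ENG and below both for TGFB2.

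Levels were also taken per kilobase of exon, to set genes side by side. The length was that of all annotated exons of a gene merged, 3082 bases for BMP4 and 6844 for TGFBR1. Their longest transcripts have 1917 and 6516 bases, so the order of BMP4 and TGFBR1 depends on the length used. Per kilobase of merged exon TGFBR2 was the most abundant of the 10 in static cells at 82.0 ± 3.76 CPM per kb, followed by TGFB1 at 45.9 ± 0.82, TGFBR1 at 18.0 ± 1.35 and BMP4 at 12.0 ± 0.54 CPM per kb (SD, n = 2 each). TGFB2 followed at 7.43 ± 1.19 CPM per kb, then INHBA at 4.78 ± 0.72 and ACVR1 at 4.50 ± 0.53 CPM per kb, a pair whose libraries overlapped. TGFBR3 at 2.33 ± 0.034, ENG at 0.856 ± 0.117 and TGFB3 at 0.446 ± 0.068 CPM per kb were the lowest. Under high flow the first 4 places were held by the same genes: TGFBR2 at 93.0 ± 0.91, TGFB1 at 63.9 ± 10.6, TGFBR1 at 18.7 ± 1.05 and BMP4 at 18.7 ± 2.99 CPM per kb, where TGFBR1 and BMP4 overlapped. INHBA, at 6.82 ± 1.14 CPM per kb, and ACVR1, at 6.10 ± 0.18, overlapped each other and lay above TGFB2 at 4.84 ± 0.05 CPM per kb. In low flow TGFB2 spread from 3.92 to 6.75 CPM per kb, a range that covered INHBA (4.50 and 4.55) and ACVR1 (5.63 and 6.64).

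**Figure D2:**
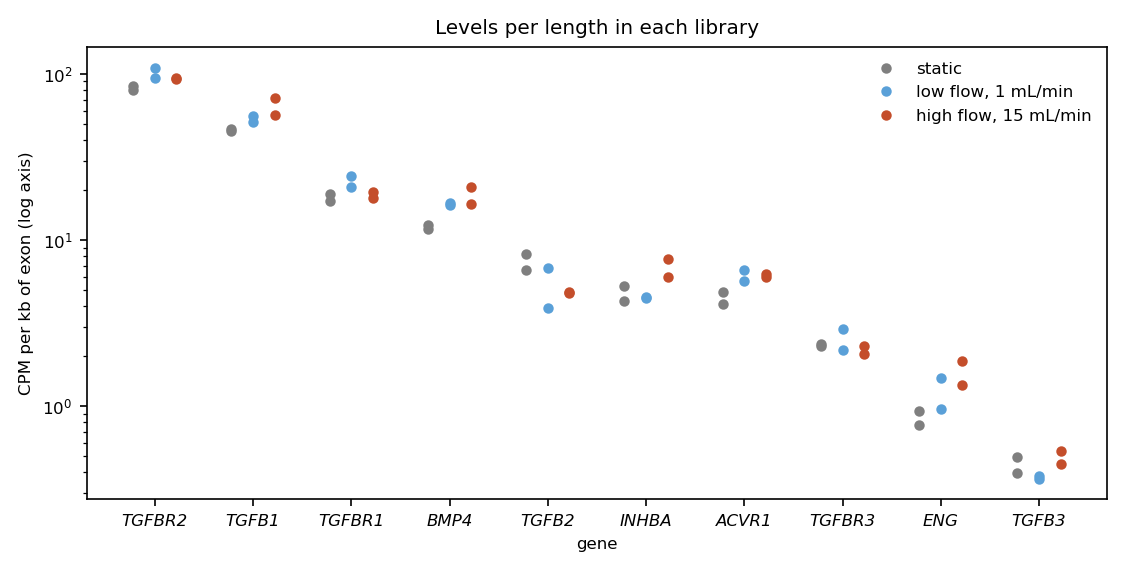
Level per length (CPM per kb of exon, log axis) of the 10 genes in each library, ordered by their mean in static cells, with static, low flow and high flow side by side. TGFBR2 and TGFB1 lie highest and TGFB3 lowest in every library, and TGFB2 lies above INHBA and ACVR1 in both static libraries and below them in both high flow libraries.

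TGFB1 and TGFB2 encode isoforms that bind the same signalling receptors, TGFB2 with a need for the coreceptor betaglycan to bind well. The 250 bases before the RefSeq start of each gene are shown because TGFB1 lay higher and TGFB2 lower under high flow than in static cells, while INHBA has the largest fold change between the flow rates among the 5 ligand genes of the 10. The sequences are from RefSeq on GRCh38.p14, 5′ to 3′ on the gene's strand, with capitals at matches on either strand to 7 motifs, namely TGANTCA for AP-1, GGAATG for TEAD factors, CAGACA for SMAD3 and SMAD4, GGCGCC for BMP SMADs, GGGCGG as the GC box of Sp1, TATAAA for the TATA-binding protein and TGACGT as the core of a cAMP response element.
TGFB1 (minus strand, chr19:41353923-41354172): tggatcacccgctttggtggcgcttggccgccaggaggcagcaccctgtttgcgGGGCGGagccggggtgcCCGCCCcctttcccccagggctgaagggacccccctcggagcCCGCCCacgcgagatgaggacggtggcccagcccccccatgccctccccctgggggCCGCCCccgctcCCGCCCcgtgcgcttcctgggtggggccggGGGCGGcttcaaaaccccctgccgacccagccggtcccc
TGFB2 (plus strand, chr1:218345086-218345335): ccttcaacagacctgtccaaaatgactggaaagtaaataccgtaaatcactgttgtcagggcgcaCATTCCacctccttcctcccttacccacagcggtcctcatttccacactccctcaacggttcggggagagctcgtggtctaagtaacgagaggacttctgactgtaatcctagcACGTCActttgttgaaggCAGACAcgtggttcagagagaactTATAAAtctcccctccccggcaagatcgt
INHBA (minus strand, chr7:41703091-41703340): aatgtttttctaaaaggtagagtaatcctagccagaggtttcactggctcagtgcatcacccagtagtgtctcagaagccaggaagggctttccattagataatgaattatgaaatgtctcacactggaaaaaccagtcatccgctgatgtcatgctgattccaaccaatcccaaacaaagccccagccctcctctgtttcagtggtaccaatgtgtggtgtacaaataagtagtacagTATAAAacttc
The TGFB1 window held 6 GC boxes and none of the other motifs, at 76.8% G and C. The TGFB2 window, at 50.4% G and C, held 1 match each to the TEAD motif and the SMAD3 and SMAD4 box. It also held 1 each to the cAMP response element core and TATA, and no GC box. The TGFB2 window ends at position 218345335, while the span of TGFB2 in GENCODE 29 begins farther downstream, at 218346235. The INHBA window, at 42.8% G and C, held a TATA match alone, beginning 11 bases before the RefSeq start. Of this window 18 bases lie in exons that GENCODE 29 annotates to INHBA, whose annotated span reaches farther upstream. No motif overlapped another in these windows. Of 35116 RefSeq windows of this length 42.6% held a GC box, 16.4% the BMP SMAD box, 13.6% the SMAD3 and SMAD4 box, 11.9% the TEAD motif, 10.7% TATA, 7.1% the cAMP response element core and 6.57% AP-1. Which starts these cells used was not measured, and a match is a description of the letters. Of the 10 genes 5 had a single RefSeq start in the table used.

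TGFB1 (chromosome 19, 41301587 to 41353911, minus strand, GRCh38), the main TGF-beta isoform of many carcinomas, stood at 147 and 151 CPM in static, 167 and 179.5 CPM in low flow and 231 and 183 CPM in high flow libraries. The 3 groups did not overlap, and the first high flow library lay well above the second. TGFB1 rose 1.39-fold under high flow against static, a log2 fold change of 0.48 (SE 0.11, adjusted p = 0.00896). For low flow against static the log2 fold change was 0.22 (95% interval -0.01 to 0.45, adjusted p = 0.237). High flow over low flow gave 0.26 (0.03 to 0.48, adjusted p = 0.453). TGFB1 did not pass in high flow against static without high flow replicate 1 (log2 fold change 0.30, adjusted p = 0.214), static replicate 1 (adjusted p = 0.0543) or static replicate 2 (adjusted p = 0.092). Its longest transcript is 63.45% G and C, more than 94.2% of 14975 genes that averaged 1 CPM or more, across which the high flow against static log2 fold changes rose with G and C content (Spearman rho = 0.405). Across the same genes rho was 0.595 for high flow against low flow and 0.0909 for low flow against static. With offsets for length and G and C content the high flow against static log2 fold change of TGFB1 was 0.23 (adjusted p = 0.128).

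TGFB2 (chromosome 1, 218346235 to 218444619, plus strand) stood at 33.9 and 42.6 CPM in static, 34.8 and 20.2 CPM in low flow and 24.8 and 25.1 CPM in high flow libraries. Both high flow libraries lay below both static libraries, while the low flow libraries lay far apart and spanned the high flow values. The log2 fold change was -0.62 for high flow against static (SE 0.28, 95% interval -1.34 to 0.10, adjusted p = 0.224) and -0.48 for low flow against static (-1.20 to 0.24, adjusted p = 0.38), so TGFB2 did not pass in either. When the low flow libraries were not in the fit the high flow against static value was the same, -0.62, and passed (adjusted p = 0.000115). It also passed without an expression filter (adjusted p = 0.000205) and without low flow replicate 1 (adjusted p = 0.000109) or low flow replicate 2 (adjusted p = 0.000128). Without low flow replicate 1 the low flow against static value was -0.93 (adjusted p = 1.35e-05), resting on the other low flow library alone. TGFB2-OT1, annotated within the TGFB2 exons on the same strand over 1371 bases, had 15.6% to 20.6% as many counts as TGFB2, and the sources used here do not say how shared reads were assigned. Its log2 fold change for high flow against static was -0.46 (adjusted p = 0.157).

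TGFB3 (chromosome 14, 75958099 to 75982991, minus strand), the third isoform, stood at 2.43 and 1.96 CPM in static, 1.80 and 1.87 CPM in low flow and 2.20 and 2.63 CPM in high flow libraries. Its counts per library ran from 44 to 140, and the high flow and static libraries overlapped. The log2 fold change was 0.15 for high flow against static (95% interval -0.36 to 0.67, adjusted p = 0.724) and -0.25 for low flow against static (-0.77 to 0.28, adjusted p = 0.598).

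Per length, TGFB1 made up 92.2 ± 1.34% of the summed RNA of the TGFB1, TGFB2 and TGFB3 genes in high flow libraries and 85.4 ± 1.56% in static libraries (SD, n = 2 each). TGFB2 made up 7.08 ± 1.15% in high flow and 13.8 ± 1.73% in static libraries. The shares of TGFB1 and TGFB2 in high flow libraries did not overlap those in static libraries, while those of TGFB3 did. The longest transcript of TGFB1 is 63.45% G and C and that of TGFB2 38.89%, and the shares carry no offset for this. High flow against static gave log2 fold changes of 0.48 for TGFB1 and -0.62 for TGFB2. With length and G and C offsets these were 0.23 and -0.49. The shares themselves were not tested. The ratio of TGFB1 to TGFB2 per length was 14.9 and 11.6 in high flow libraries and 6.89 and 5.63 in static libraries. In low flow libraries it was 7.63 and 14.2, as far apart as the other groups are from each other. TGFB3 made up under 1% in every library. That share rests on its merged exon length of 4914 bases, where its longest transcript has 2708.

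**Figure D3:**
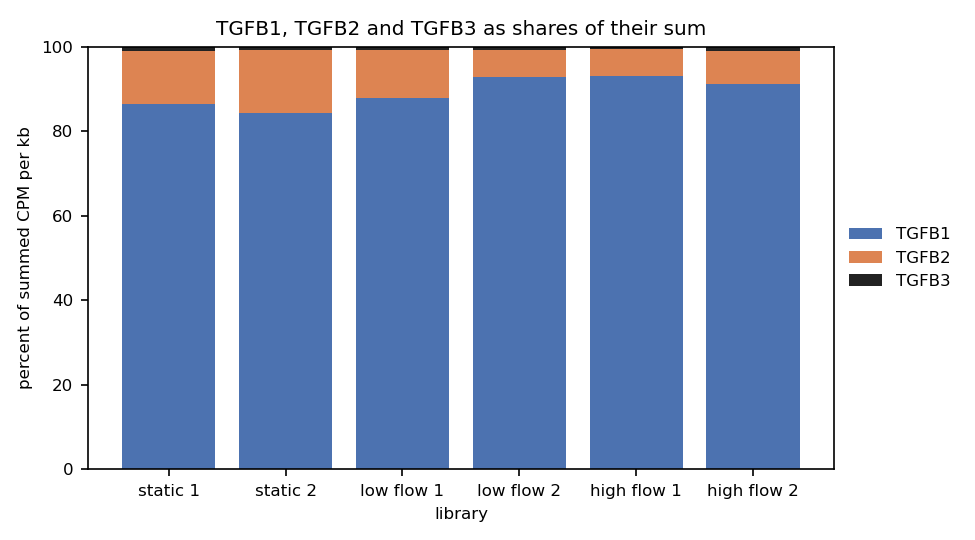
TGFB1, TGFB2 and TGFB3 as percentages of their summed level per length (y axis) in each of the 6 libraries. The TGFB1 part is 84.3% and 86.5% in the static libraries, 87.9% and 92.8% in low flow and 93.2% and 91.3% in high flow, and TGFB3 is a thin strip at the top.

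INHBA (chromosome 7, 41667168 to 41705834, minus strand), which encodes the subunit of activin A, stood at 35.5 and 43.9 CPM in static, 37.4 and 37.8 CPM in low flow and 63.3 and 49.9 CPM in high flow libraries. Both high flow libraries lay above the other 4, and static and low flow overlapped. INHBA rose 1.42-fold under high flow against static (log2 fold change 0.51, SE 0.13, adjusted p = 0.0149). That result did not pass without high flow replicate 1 (log2 fold change 0.33, adjusted p = 0.247) or static replicate 1 (0.36, adjusted p = 0.113). Low flow against static gave a log2 fold change of -0.08 (95% interval -0.35 to 0.19, adjusted p = 0.751).

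High flow against low flow gave INHBA a log2 fold change of 0.59 (SE 0.12, 95% interval 0.33 to 0.85, adjusted p = 0.055), the smallest adjusted p among the 10 genes in that comparison and just outside the threshold. It passed in DESeq2 (adjusted p = 0.00685), without an expression filter (adjusted p = 2.19e-05), and without low flow replicate 1 (adjusted p = 0.049) or low flow replicate 2 (adjusted p = 0.0389). It passed in these 4 of 14 other settings, and in the other 10 its adjusted p ran up to 0.999, the value without high flow replicate 1 (log2 fold change 0.41). Its transcript is 39.1% G and C.

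BMP4 (chromosome 14, 53949736 to 53958761, minus strand), a BMP ligand that signals through SMAD1 and SMAD5, stood at 38.1 and 35.7 CPM in static, 51.5 and 49.9 CPM in low flow and 64.1 and 51.0 CPM in high flow libraries. Every library under flow lay above both static libraries, and low flow and high flow overlapped. BMP4 rose 1.56-fold under high flow (log2 fold change 0.64, SE 0.11, adjusted p = 0.00194) and 1.37-fold under low flow (0.46, SE 0.11, adjusted p = 0.0228), both against static. High flow against low flow gave 0.18 (95% interval -0.05 to 0.41, adjusted p = 0.62). The high flow result did not pass without high flow replicate 1 (log2 fold change 0.47, adjusted p = 0.0828) or static replicate 2 (0.59, adjusted p = 0.0589), nor the low flow result without low flow replicate 2 (adjusted p = 0.0651), static replicate 1 (adjusted p = 0.0691) or static replicate 2 (adjusted p = 0.185).

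Among the receptors, TGFBR2 (chromosome 3, 30606502 to 30694142, plus strand), the type II receptor that binds TGF-beta, stood at 398 and 373 CPM in static, 442 and 513 CPM in low flow and 441 and 435 CPM in high flow libraries. Every flow library lay above both static libraries. The log2 fold change was 0.31 for low flow against static (95% interval 0.09 to 0.52, adjusted p = 0.0764) and 0.18 for high flow against static (-0.03 to 0.40, adjusted p = 0.247), neither of which passed. Low flow against static passed in DESeq2 (adjusted p = 0.0295), without an expression filter (adjusted p = 0.0227) and without low flow replicate 1 (adjusted p = 0.0191).

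TGFBR1 (chromosome 9, 99104038 to 99154192, plus strand), the type I receptor that TGFBR2 activates, stood at 117 and 129.9 CPM in static, 167 and 143 CPM in low flow and 123 and 133 CPM in high flow libraries. The low flow libraries lay above the other 4, and high flow overlapped static. For low flow against static the log2 fold change was 0.33 (95% interval 0.11 to 0.54, adjusted p = 0.0643); high flow against static gave 0.05 (-0.16 to 0.27, adjusted p = 0.769) and high flow over low flow -0.27 (-0.49 to -0.06, adjusted p = 0.392). Low flow against static passed with the length and G and C offsets (0.30, adjusted p = 0.042), in DESeq2 (0.32, adjusted p = 0.042) and without an expression filter (0.36, adjusted p = 0.0144). The ratio of TGFBR2 to TGFBR1 per length was 4.98 ± 0.33 in high flow, 4.54 ± 0.96 in low flow and 4.57 ± 0.55 in static libraries (SD, n = 2 each), differences within the spread between libraries.

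ACVR1 (chromosome 2, 157736444 to 157875862, minus strand) encodes ALK2, a type I receptor of BMPs. It stood at 19.5 and 16.5 CPM in static, 22.5 and 26.5 CPM in low flow and 23.8 and 24.9 CPM in high flow libraries. Every flow library lay above both static libraries, and the high flow values lay between the low flow ones. ACVR1 rose 1.37-fold under low flow (log2 fold change 0.45, SE 0.12, adjusted p = 0.0375) and 1.36-fold under high flow (0.44, SE 0.12, adjusted p = 0.0247), both against static. High flow against low flow gave -0.01 (95% interval -0.25 to 0.24, adjusted p = 0.993).

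The low flow result for ACVR1 was the less stable of these. It passed in 6 of 14 other settings, and its adjusted p was 0.0684 with the replicate block (0.0532 with that block and the length and G and C offsets), 0.0887 with the 4 libraries compared alone, 0.087 and 0.0888 without high flow replicate 1 or 2, 0.353 without low flow replicate 2, and 0.0508 and 0.275 without static replicate 1 or 2. The high flow result passed in 11 of 14, with adjusted p = 0.15, 0.157 and 0.237 without high flow replicate 1, high flow replicate 2 or static replicate 2.

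Of the coreceptors, ENG (chromosome 9, 127815012 to 127854756, minus strand) encodes endoglin, an accessory receptor best known from endothelial cells. It stood at 3.69 and 3.04 CPM in static, 3.75 and 5.84 CPM in low flow and 7.39 and 5.29 CPM in high flow libraries. Both high flow libraries lay above both static libraries, and low flow reached from just above static into the high flow range. ENG rose 1.89-fold under high flow against static, a log2 fold change of 0.92 (SE 0.24, adjusted p = 0.0221), the largest of the 10 genes on counts of 67 and 70 in the static libraries. Low flow against static gave 0.52 (95% interval -0.0054 to 1.04, adjusted p = 0.218), which passed without low flow replicate 1 (0.80, adjusted p = 0.014). The high flow result did not pass with the length and G and C offsets (0.66, adjusted p = 0.0791), nor without high flow replicate 1 (0.66, adjusted p = 0.238), static replicate 1 (1.05, adjusted p = 0.0696) or static replicate 2 (0.78, adjusted p = 0.243), and the transcript is 63.3% G and C.

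AL162586.1, annotated on the opposite strand with 313 exonic bases shared with ENG, had 64.2% to 131% as many counts as ENG per library. Its log2 fold change for high flow against static was 0.37 (adjusted p = 0.234). Across the table, a gene nested within exons of an opposite-strand gene had a median count density of 0.0135 of that gene's (303 pairs), against 0.647 where the strand was the same (91 pairs). The strand setting of the counting is not stated, and the share of such reads in the ENG count was not tested. The summed level of the 8 endothelial markers was 54.6 to 57.2 CPM in high flow, 51.7 to 59.1 CPM in low flow and 41.0 to 50.3 CPM in static libraries, nearly all of it PECAM1 and TIE1. Their part in the ENG result was not tested, and in bulk RNA more cells of a type and more RNA per cell cannot be told apart.

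TGFBR3 (chromosome 1, 91680343 to 91906335, minus strand) encodes betaglycan, the coreceptor that presents TGF-beta 2. It stood at 20.5 and 20.0 CPM in static, 25.5 and 18.9 CPM in low flow and 17.8 and 20.1 CPM in high flow libraries. All groups overlapped. The log2 fold change was -0.09 for high flow against static (95% interval -0.38 to 0.20, adjusted p = 0.704). It was 0.13 for low flow against static (-0.16 to 0.42, adjusted p = 0.607), and high flow over low flow gave -0.22 (-0.50 to 0.05, adjusted p = 0.612). Per length TGFBR3 had 1.09 and 1.72 times the level of ENG in high flow libraries, against 2.50 and 2.98 times in static libraries.

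**Figure D4:**
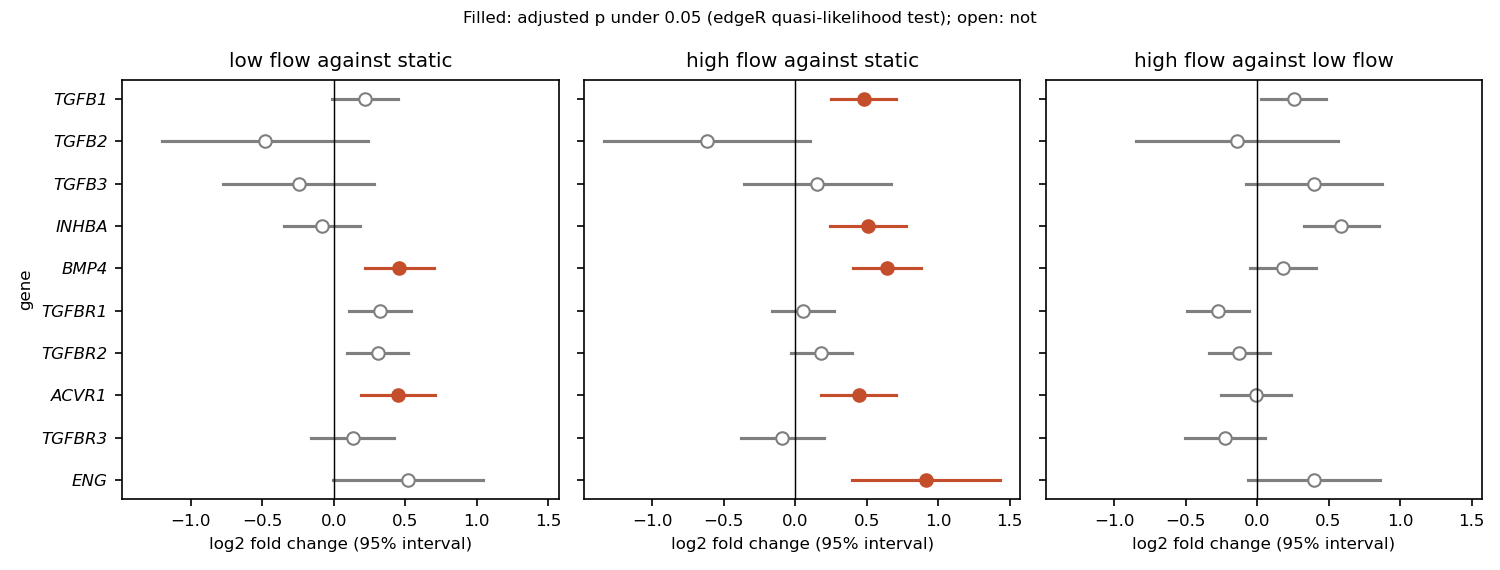
Log2 fold change (x axis) of each of the 10 genes with its 95% interval in the 3 comparisons, filled where the adjusted p was under 0.05. For high flow against static 5 genes are filled to the right of 0, for low flow against static BMP4 and ACVR1, and between the flow rates none, with INHBA farthest right at 0.59.

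Without regard to a test, 6 of the 10 genes had both high flow libraries above both static libraries and 1, TGFB2, had both below, beside 29.9% and 29.4% of all genes. For low flow against static 6 lay above and 1 below, beside 27.1% and 26.3%. Between the flow rates 3 lay above in high flow and 2 below, beside 21.2% and 21.5%. The first high flow library held the highest value of all 6 for 4 genes, TGFB1, INHBA, BMP4 and ENG. Without it 0 of the 10 genes passed in high flow against static, where 248 of all genes did against 2878 with every library. The count was 2 without static replicate 1 and 1 without static replicate 2.

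**Figure D5:**
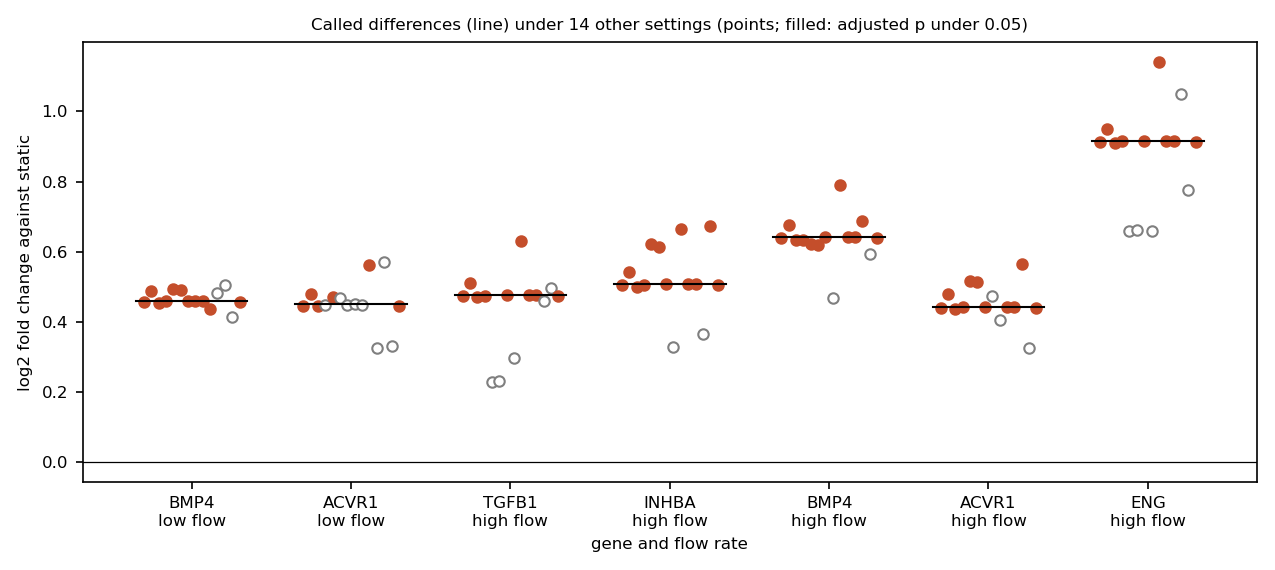
Log2 fold change against static (y axis) of the 7 results that passed, each under 14 other settings (points, filled where the adjusted p was under 0.05), with the reported value as a line. Every point lies above 0, and the open points of TGFB1 and ENG include the settings with length and G and C offsets, at 0.23 and 0.66.

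By the likeness of log2 CPM over the 6 libraries, BMP4 was closest to ZSWIM8, EXOC7 and PDK2, and TGFB1 to KANK2, PARP10 and UBAP1, with Pearson's r of 0.991 to 0.995 among 10663 genes that averaged 10 CPM or more. These points share libraries and groups, and r is a description of 6 values. The high flow against static log2 fold changes of these genes ran from 0.20 to 0.37, smaller than 0.64 for BMP4 and 0.48 for TGFB1.

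Genes around the 10 were read from lists of the same system. Of 28 other superfamily ligand genes 15 were tested, and under high flow against static 2 were higher and 2 lower, beside 7.49% and 6.43% of all genes. Without high flow replicate 1, or without static replicate 2, 0 of the 15 passed. BMP2, the ligand closest to BMP4, stood at 11.9 and 11.0 CPM in static, 14.6 and 21.0 CPM in low flow and 23.4 and 19.6 CPM in high flow libraries, and rose 1.88-fold under high flow (adjusted p = 0.00383) and 1.56-fold under low flow (adjusted p = 0.0349). The low flow result passed in 6 of 14 other settings, failing with the replicate block, with the 4 libraries compared alone and without any library other than low flow replicate 1, and its log2 fold change was as low as 0.36. INHBB, of activin B, rose 1.68-fold under high flow (adjusted p = 0.0242). That INHBB result passed in 8 of 14 other settings, failing among others with the length and G and C offsets (log2 fold change 0.60, adjusted p = 0.0804). INHBE, of activin E, fell to 0.491 and 0.601 CPM in high flow libraries, against 3.86 and 2.74 CPM in static ones (log2 fold change -2.57, adjusted p = 0.0088). GDF15, a stress-induced divergent member of the family, fell to 5.48 and 6.23 CPM in high flow libraries, against 15.3 and 13.2 CPM in static ones (log2 fold change -1.28, adjusted p = 0.00618).

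Of 14 other receptor, coreceptor and decoy genes 10 were tested. The type II BMP receptor gene BMPR2 rose under low flow (log2 fold change 0.36, adjusted p = 0.0383), with 0.21 under high flow (adjusted p = 0.174). The low flow result passed in 7 of 14 other settings, failing with block and offsets, with the 4 libraries compared alone and without any library other than low flow replicate 1. The BMP coreceptor gene RGMB rose under high flow (0.59, adjusted p = 0.00102), and passed in all 14 other settings. BAMBI, a kinase-less pseudoreceptor that dampens signalling, rose too (0.77, adjusted p = 0.0022) and did not pass without high flow replicate 1. Of 7 secreted antagonists tested, FSTL3, which binds activin, was the 1 that rose under high flow (0.55, adjusted p = 0.00299), and 0 fell. FSTL3 did not pass without high flow replicate 1, without static replicate 2 or with block and offsets. All 25 listed genes left untested had at most 32 counts over the 6 libraries.

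Of 12 tested genes of latency and activation 5 rose under high flow against static and 0 fell, beside 7.49% of all genes higher and 6.43% lower, the shares against which the other lists under high flow are also to be read. They were the latent TGF-beta binding protein genes LTBP1 (log2 fold change 0.50, adjusted p = 0.013), LTBP4 (0.66, adjusted p = 0.0208) and LTBP3, the last named after its values were seen (0.80, adjusted p = 0.026), the processing protease FURIN (0.45, adjusted p = 0.0208) and THBS1, an activator of latent TGF-beta. THBS1 had 1312 and 1285 CPM in high flow libraries against 533 and 592 CPM in static ones (1.21, adjusted p = 0.000119). LTBP1 rose under low flow too (0.60, adjusted p = 0.01). With the length and G and C offsets 1 of the 12 passed under high flow, as without high flow replicate 1 and without static replicate 2. THBS1 passed in all 14 other settings.

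Of all genes 3.25% were higher and 3.49% lower in low flow against static, and 0.242% and 0.0919% in high flow against low flow. Of 14 listed TGF-beta response genes 13 rose under high flow against static and 4 under low flow against static. In high flow against low flow 4 rose, and 0 fell in any comparison. The list was chosen with earlier results of these data known, so its counts are a description. Activity of the pathway was not measured. Under high flow against static the count was 12 with the length and G and C offsets, 6 without high flow replicate 1 and 9 without static replicate 2. The low flow count was 2 without static replicate 1, 0 without static replicate 2 and 8 without an expression filter. Between the flow rates it was 0 without high flow replicate 1, 1 without either static library or with the 4 libraries alone, 2 with offsets and 9 without a filter. The median log2 fold changes of these genes were 0.84, 0.40 and 0.58 in that order. COL1A1, a type I collagen gene, stood at 11.7 and 12.7 CPM in static, 22.3 and 17.9 CPM in low flow and 45.0 and 38.0 CPM in high flow libraries, and passed in all 3 comparisons. Between the flow rates COL1A1 did not pass without high flow replicate 1. ANGPTL4, which encodes a secreted inhibitor of lipoprotein lipase, also passed in all 3, but between the flow rates in only 5 of 14 other settings, with a log2 fold change of 0.42 with offsets (adjusted p = 0.0665). LTBP2, named after its values were seen, was the gene that did not pass, with 0.18 for high flow against static (adjusted p = 0.275). Among SMAD genes and their regulators 2 of 15 rose under low flow against static and 0 fell. These were SMAD7 (log2 fold change 0.96, adjusted p = 0.0287) and TGIF1 (0.51, adjusted p = 0.00875). SMAD7 did not pass there with the length and G and C offsets (0.86, adjusted p = 0.0942) or with block and offsets. Nor did SMAD7 pass there without static replicate 1 or without static replicate 2. Its lowest log2 fold change over the 14 other settings was 0.61. Under high flow against static 4 of the 15 rose and 0 fell. They were the inhibitory SMAD gene SMAD7 (log2 fold change 1.74, adjusted p = 0.0021), the corepressor gene SKIL (0.53, adjusted p = 0.00487), PMEPA1, which encodes an inhibitor of SMAD signalling (0.55, adjusted p = 0.00654), and the corepressor gene SKI (0.38, adjusted p = 0.022). Other inhibitors on the list did not pass under high flow against static, among them SMAD6 (0.33, adjusted p = 0.116), TGIF1 (0.30, adjusted p = 0.0627), SMURF1 (0.16, adjusted p = 0.262), LDLRAD4 (-0.04, adjusted p = 0.96) and SMURF2 (-0.20, adjusted p = 0.161), all named after their values were seen. SKI had 0.09 with the length and G and C offsets (adjusted p = 0.517) and passed in 8 of 14 other settings. SMAD7, SKIL and PMEPA1 are also on the response list. Of these 15 genes 1 passed without high flow replicate 1, and 2 without each of high flow replicate 2, static replicate 1 and static replicate 2.

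Of 9 listed BMP response genes 3 rose and 2 fell under high flow, and 2 rose and 0 fell without static replicate 2, or 2 and 1 without high flow replicate 1. ID3 rose (log2 fold change 0.89, adjusted p = 0.000307), as did SMAD7 and BAMBI, whereas ID2 fell to 13.4 and 12.7 CPM in high flow libraries, against 35.1 and 42.4 CPM in static ones (-1.57, adjusted p = 0.00461). HEY1, named after its values were seen, fell as well (-0.65, adjusted p = 0.0204). ID1, named in the same way, had 0.12 (adjusted p = 0.787). Under low flow against static 2 of the 9 rose and 1 fell, beside 3.25% and 3.49% of all genes. ID3 (0.64, adjusted p = 0.00741) and SMAD7 rose. ID2 fell to 18.4 and 11.2 CPM in low flow libraries (-1.39, adjusted p = 0.0131). With the length and G and C offsets 1 rose and 1 fell under low flow. Fewer still passed there without static replicate 1 or without static replicate 2.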

How the data were processed

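RNA of 6 libraries was measured. RNA was extracted with TRIzol and libraries came from a KAPA Stranded mRNA-Seq kit, per the labels' protocols. The authors deposited raw counts per gene symbol. STAR, featureCounts and hg38 are named in the submitters' processing notes, and the annotation and strand setting are not given in the sources used here. Columns were matched to samples by the column names in the labels.

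Counts were tested with edgeR 4.0.16 (R 4.3.3): TMM scaling, filterByExpr with a minimum count of 10, a robust quasi-likelihood fit of all 6 libraries with 3 residual degrees of freedom, two-sided tests. SE came from the test statistic. Intervals are 95%. Gene positions, exon lengths and G and C content came from GENCODE 29. The genes, lists and motifs were chosen with earlier results of these data known. From each list the text names up to 4 passing genes averaging 1 CPM or more, by adjusted p in high flow against static, and says where others are named. Alternatives were RLE, other filters, DESeq2 1.42.0, fewer libraries, a replicate block, and offsets from splines on G and C content and length. List counts under the alternatives were added after seeing the data. Scripts were tested on simulated counts of 20676 genes, 200 of them changed. Of genes changed 1.5-fold 53.7% passed for low flow against static, 56.7% for high flow against static and 68.7% for high flow against low flow. Unchanged genes that passed numbered 22, 22 and 17 in that order.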

Additional observations from a re-analysis of the deposited data

How the results depend on the processing

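Counts of calls depended on the settings more than the directions of the 10 genes did. For low flow against static, 1394 genes passed and 2 of the 10. Without an expression filter these were 2260 and 5, with the replicate block 907 and 1, and with the 4 libraries compared alone 601 and 1. DESeq2 called 4 of the 10, and the replicate block with length and G and C offsets 1. For high flow against static, 2878 genes and 5 of the 10 passed. With the offsets 3 of the 10 passed, and with block and offsets 1517 genes and 3 of the 10. For high flow against low flow, 69 genes and 0 of the 10 passed. Without a filter these were 241 and 1 and in DESeq2 116 and 1, and the genes were 43 with offsets, 44 with block and offsets and 41 with the 4 libraries alone. Leaving out 1 library gave 85 to 3002 genes and 0 to 5 of the 10 for low flow against static, 248 to 3915 and 0 to 6 for high flow against static, and 3 to 233 and 0 to 1 for high flow against low flow. The cause was not tested.

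None of the 7 results that passed turned in direction under the 14 alternatives. Signs turned for results that had not passed. For low flow against static these were TGFBR3 (-0.0964 without low flow replicate 1, to 0.331 without low flow replicate 2) and INHBA (-0.226 to 0.0843 without either static library). For high flow against static they were TGFB3 (-0.00341 without static replicate 2, to 0.307 without static replicate 1) and TGFBR1 (-0.00999 without high flow replicate 2, -0.0194 without static replicate 1, to 0.133 without static replicate 2). Between the flow rates they were TGFB2 (0.018 with block and offsets, -0.479 to 0.306 without either low flow library), TGFBR3 (-0.423 to 0.00482 likewise) and ACVR1 (-0.12 without low flow replicate 1, 0.000403 without a filter, 0.0456 with offsets, 0.0462 with block and offsets, 0.0226 without high flow replicate 1 and 0.117 without low flow replicate 2).

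The labels do not say whether the replicate numbers pair libraries across groups. Over 10664 genes the difference between replicates 1 and 2 correlated at -0.305 between low flow and static. The correlation was 0.145 between high flow and static and 0.0225 between high flow and low flow. With 2 libraries a group these values cannot settle whether the libraries were paired. Among the 10 genes the block ended 1 call, ACVR1 under low flow.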
